A study of Mus musculus with 24 samples.

Results

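The genes described here are 48 named components of the mouse lysosome, out of 52976 gene symbols counted in the series. They comprise 13 cathepsins and other proteases, 9 glycosidases, 8 lipid hydrolases, saposins and lipid carriers, 2 acid phosphatases, 8 membrane proteins, 5 proton pump subunits, and 3 further genes, the transcription factors Tfeb and Tfec and the secreted factor progranulin (Grn). The members were found by gene symbol in the count files and not by a threshold on their values. The list itself was chosen with earlier results of these data known. All 48 had at least 1 read pair in every library and all 48 entered the tests in wounds and in cells.

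Lysosomes are acid compartments in which hydrolases break down proteins, glycans, lipids and nucleic acids taken up from outside or delivered by autophagy. Their membrane is lined with heavily glycosylated proteins, and a V-type ATPase pumps in the protons on which the hydrolases depend. In healing skin the compartment is known for the clearance of dead neutrophils and matrix by macrophages, and several cathepsins are also secreted and cut collagen and elastin outside the cell.

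Transcripts were counted in hydrogel-treated wounds and in control wounds, all of them on diabetic mice, at days 1, 7 and 14 (3 libraries in each of 6 groups). The hydrogel, named Fmoc-KYF-AgNCs-3S1C-Hyd2 in the wound labels, is a peptide gel that holds silver nanoclusters and a hydrogenase able to work in oxygen, built to release hydrogen under light. Diabetes was common to both arms, wounds without diabetes were not analysed here, and the labels used here give neither strain, age, sex, how diabetes was induced, nor whether controls received an empty gel or light. A further 6 libraries came from RAW264.7, a mouse macrophage line transformed by a leukaemia virus, 3 with hydrogel and 3 controls. The wound titles call the arms TEOA (hydrogel) and Dia (control), and the labels do not explain TEOA. The labels of the 3 hydrogel cell libraries end in Hyd3, Hyd4 and Hyd5 where the wound labels end in Hyd2. If these endings name different gels, the 3 libraries are not replicates of the same treatment. Control cells are labelled with LPS (lipopolysaccharide, from the wall of bacteria, a standard macrophage stimulus). Hydrogel cells are labelled with the gel alone, although by the design text all the macrophages had been stimulated with LPS. Hydrogel and LPS therefore cannot be told apart in the cell comparison if the hydrogel cells received none. No label says that the 3 libraries of a group came from separate animals or cultures, so p-values reflect only how far these libraries varied, and that variation may be technical.

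Libraries held 12428907 to 27062593 counted read pairs in wounds and 17932839 to 23955760 in cells. The members took 0.542% to 1.49% of the counts in wound libraries and 1.91% to 2.14% in cell libraries. Levels are given in CPM, a read-pair count scaled to the size of its library by the TMM method within the wounds and, separately, within the cells. The 3 control libraries of day 7 differed little beyond counting noise, with a median chi-square per gene of 0.644 to 0.796 between pairs where noise alone gives 0.455, and the 3 RAW264.7 control libraries lay at 0.511 to 0.613. The 3 RAW264.7 hydrogel libraries lay further apart, at 1.65 to 4.39. The same measure reached 26.8 in the hydrogel group of day 1, where replicate 1 differed most from the others, and 30.1 and 34.5 in the control groups of days 1 and 14. Control replicate 1 of day 1 and control replicate 1 of day 14 stood apart from their groups, with summed macrophage markers of 752 and 2854 CPM where the other control libraries of those days held 161.5 to 204 and 291 to 571 CPM. Summed skeletal muscle markers of control replicate 1 of day 1 were 5946 CPM, against 121200 and 198800 CPM in the other 2 control libraries of that day. The counts below are given with and without these libraries, and the calls lost without one are named. All 8 keratinocyte markers and all 8 fibroblast markers had counts in every wound library. RAW264.7 cells held macrophage genes such as Csf1r and Cd14, with 956, 945 and 888 CPM of Csf1r in hydrogel cells and 439.9, 437 and 439.6 CPM in control cells, while the tissue macrophage marker Cd163 was at 0 in all 6 cell libraries.

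Many lysosomal genes are controlled by Tfeb and its relatives, which bind a palindrome called the CLEAR motif. The 8-base core of that motif, TCACGTGA, was searched on RefSeq promoters of the mouse (GRCm38.p6, 250 bases before to 50 after each start site). The palindrome reads the same on both strands and contains the E-box CACGTG. Of the 42 members with a promoter entry, 8 held the core (19%), against 1.12% of the 27025 symbols in the table. As the motif is known from lysosomal genes, its higher share in a list of such genes is not an independent finding. The windows of 6 of those 8 members are shown as examples of the core, and binding of Tfeb at these sites was not measured. Each runs 5′ to 3′ on the strand of the gene, with the core in capitals.
Ctsd, chr7:142387908-142387937, minus strand: tcgcccgcgtcTCACGTGAcccgttgaggg
Ctsa, chr2:164833749-164833778, plus strand: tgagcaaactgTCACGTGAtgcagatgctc
Dpp7, chr2:25356388-25356417, minus strand: ccgccagactaTCACGTGAtgctgccccgc
Mcoln1, chr8:3500462-3500491, plus strand: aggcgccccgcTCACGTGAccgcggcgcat
Cln3, chr7:126583340-126583369, minus strand: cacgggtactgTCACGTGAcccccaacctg
Atp6v1a, chr16:44139373-44139402, minus strand: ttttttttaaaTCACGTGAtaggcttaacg
The Cln3 window holds the full 10-base CLEAR palindrome, which 0.37% of all symbols had. Gla and Atp6v0d1 were the other 2 members with the core. The shorter E-box CACGTG was found in 15 of the 42 members (35.7%), against 8.09% of symbols.

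Compared per kilobase of exon, the saposin precursor Psap, the aspartic protease Ctsd and the tetraspanin Cd63 were among the 4 most abundant members in each of the 6 wound groups. Psap led at day 7, with a mean of 389 CPM per kb in hydrogel wounds and 705 CPM per kb in control wounds. At day 14 Ctsd and Psap led in hydrogel wounds at 234 and 229 CPM per kb, and in control wounds Psap led at 579.8 CPM per kb. The beta-mannosidase Manba was among the 3 lowest per kilobase in each wound group, and Tfec was the lowest in hydrogel wounds of days 7 and 14 and in control wounds of day 14. Added together, the 48 members came to 9071 to 13610 CPM in hydrogel wounds and 7987 to 12830 CPM in control wounds at day 1. At day 7 the sums were 6559 to 7075 CPM in hydrogel wounds and 12820 to 13020 CPM in control wounds. At day 14 they were 4143 to 4720 CPM in hydrogel wounds and 5841 to 15100 CPM in control wounds. The ranges of the 2 arms overlapped at day 1 and lay apart at days 7 and 14, with the hydrogel arm below. In bulk tissue, fewer cells of a type and less RNA per cell cannot be told apart.

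**Figure D1:**
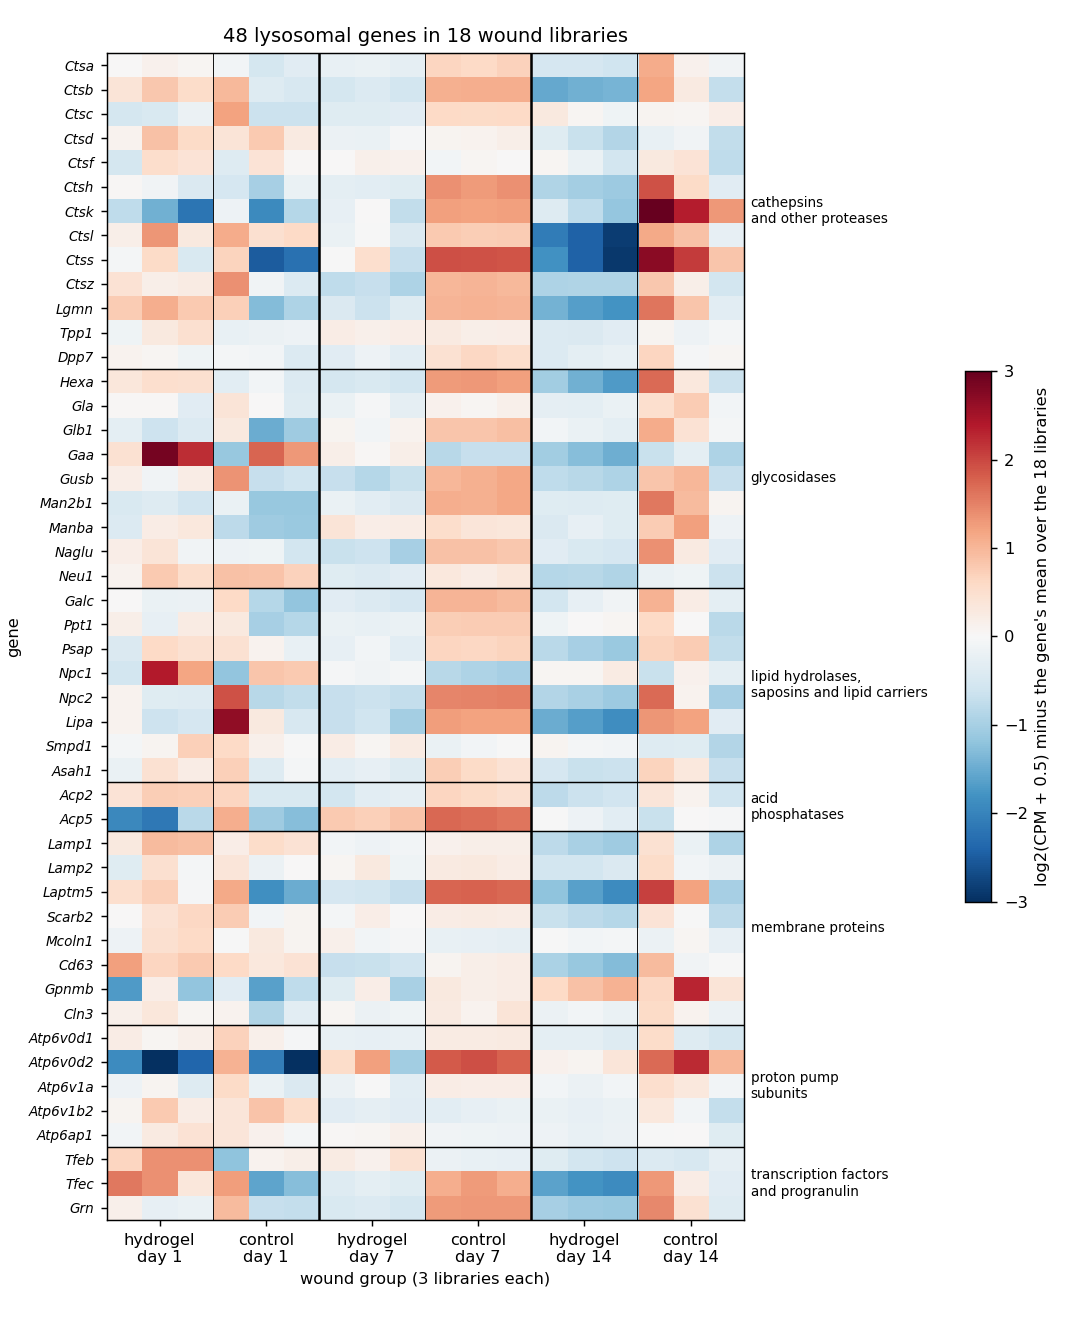
Level of the 48 lysosomal genes (rows, grouped by role) in the 18 wound libraries (columns, 3 per group), as log2(CPM + 0.5) minus the gene's mean over the 18 libraries; colours stop at 3 in either direction. The day 7 hydrogel columns are paler or bluer than the red day 7 control columns in most rows, and Ctss, Ctsk and Ctsl show the deepest contrast at day 14.

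At day 7, 21 of the 48 members (43.8%) were lower in hydrogel than in control wounds and 0 were higher, by edgeR's quasi-likelihood test at a Benjamini-Hochberg adjusted p below 0.05 over all 17592 genes tested. Over all genes 21.6% passed, 11.7% lower and 9.86% higher. The median log2 fold change was -0.87 for the members and 0.01 for all genes. At day 14, 19 members (39.6%) were lower and 0 were higher, where 16.1% of all genes passed, 10.3% lower and 5.83% higher, and the medians were -0.76 and 0.03. Of the members lower at one of these days, 14 were lower at both, which is 66.7% of the day 7 genes and 73.7% of the day 14 genes. At day 1, 2 members were higher, Tfeb and Manba, and 0 were lower, where 7.55% of all genes passed, 4.53% higher and 3.02% lower. The medians at day 1 were 0.15 for the members and 0.04 for all genes. At an unadjusted p below 0.05, edgeR counted 3 members lower at day 1, 0 higher at day 7 and 1 higher at day 14, DESeq2 called 3 lower, 0 higher and 0 higher at an adjusted p below 0.05, and limma-voom with quality weights called 0 lower, 6 higher and 1 higher. The effect of the hydrogel differed between the 3 days for 16 members by the interaction test, where 15.8% of all genes passed.

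At day 7 the 3 hydrogel libraries lay wholly below the 3 control libraries for 36 members and wholly above for 6, Gaa, Npc1, Smpd1, Mcoln1, Tfeb and Atp6ap1, while 34.9% of all genes lay below and 35.3% above. At day 14 the hydrogel libraries lay below for 26 members and above for 1, Smpd1, against 20.0% and 23.8% of all genes. At day 1 they lay below for 0 and above for 8 members, against 7.52% and 9.57% of all genes. The day 7 count rests on replicates that are nearly alike: with the day 7 libraries of each arm summed into 1, 0 members passed the edgeR test (3 at an unadjusted p below 0.05), and without any 1 day 7 library 7 to 10 passed. The day 14 count was 10 without control replicate 1 and 9 without hydrogel replicate 2 or 3. The spread was estimated over all 18 wound libraries together, so the alike day 7 libraries also entered the p-values of days 1 and 14. In a fit of only the groups compared, 5 of the 19 day 14 calls, 0 of the 2 day 1 calls and 21 of the 21 day 7 calls were kept. With the day 7 libraries summed, 7 of the 19 day 14 calls and 0 of the 2 day 1 calls were kept. The day 1 count was 9 without control replicate 1 of that day, 4 without control replicate 3 or without hydrogel replicate 1, 1 without hydrogel replicate 2 or without any 1 library of hydrogel day 7, hydrogel day 14 or control day 7, and 0 without hydrogel replicate 3. The between-day count was 28 without control replicate 1 of day 1, 10 without control replicate 2 or 3 of day 1, and 0 with the day 7 libraries summed.

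Without control replicate 1 of day 14 the members' median at day 14 was -0.52, and 10 of the 19 calls were kept by edgeR's test. The 10 were Ctsh (log2 fold change -1.21), Ctsk (-2.66), Ctsl (-2.86), Ctss (-3.96), Hexa (-1.30), Man2b1 (-0.96), Lipa (-2.35), Tfec (-2.91), Cd63 (-1.06) and Lgmn (-1.99), with adjusted p-values of 0.00121 to 0.0483. The 9 that were lost were Ctsa (-0.55, adjusted p = 0.062), Ctsb (-1.32, 0.0517), Laptm5 (-2.07, 0.0935), Manba (-1.21, 0.0636), Naglu (-0.44, 0.252), Neu1 (-0.51, 0.134), Psap (-1.16, 0.0831), Grn (-1.18, 0.0888) and Dpp7 (-0.32, 0.257). All 19 remained lower in hydrogel wounds. Without the same library the between-day calls of Ctsk (adjusted p = 0.0669) and Tfeb (0.0529) were lost, and without hydrogel replicate 1 of day 1 that of Ctsk (0.0556).

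**Figure D2:**
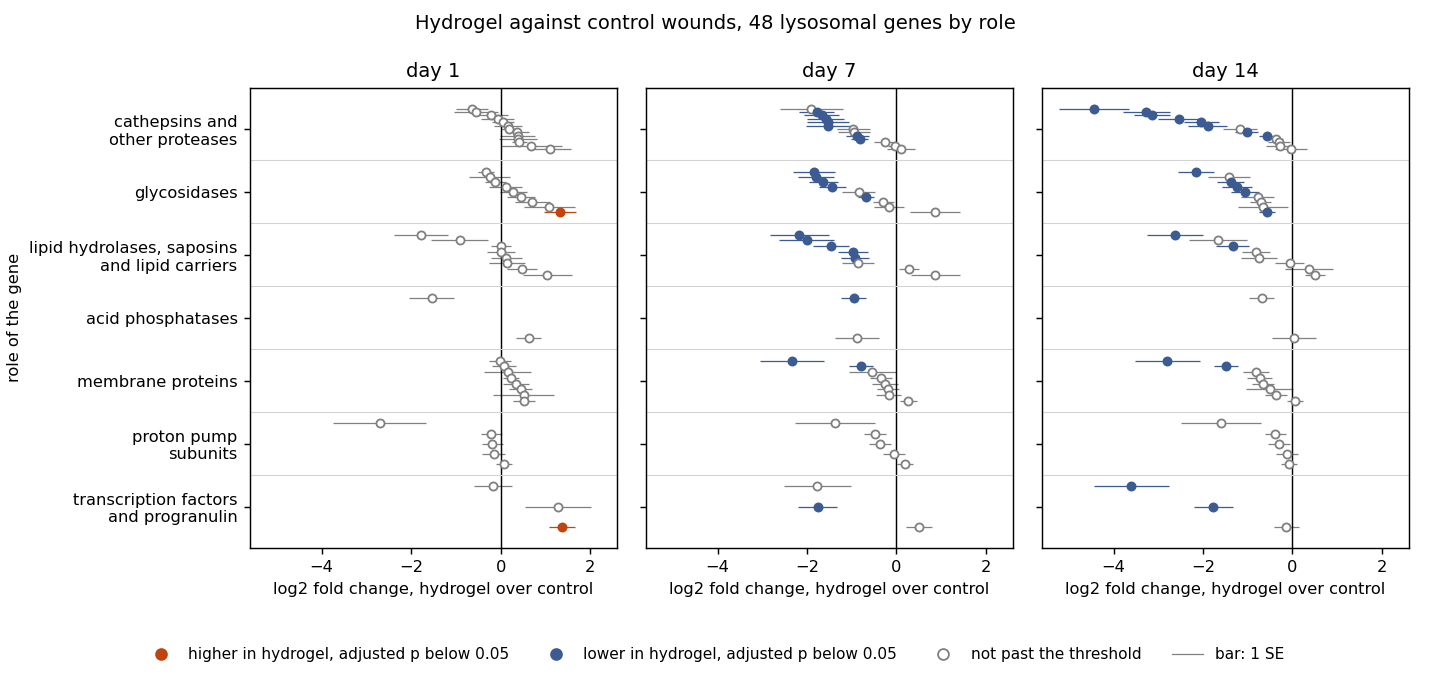
Log2 fold change of each of the 48 genes, hydrogel over control wounds, at days 1, 7 and 14 (x axis), by role (y axis); filled points passed an adjusted p of 0.05 and bars are 1 SE. Filled points are 2 at day 1, both to the right of 0, 21 at day 7 and 19 at day 14, all to the left of 0, and the row of proton pump subunits has none.

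In comparisons of hydrogel with control, whether wounds of the same day or cells, fell and rose mean lower and higher with hydrogel, not a change over time. Among the 13 cathepsins and other proteases, 7 fell in this sense at day 7 and 8 at day 14, and 0 passed at day 1. The class medians at days 7 and 14 were -0.97 and -1.17 on the log2 scale. Ctsb, a lysosomal cysteine protease with broad targets, had 795, 856 and 778 CPM in hydrogel wounds against 2399, 2442 and 2453 CPM in control wounds at day 7. Its day 14 levels were 396, 423 and 438 CPM in hydrogel wounds and 2586, 1384 and 703 CPM in control wounds. All hydrogel libraries lay below all control libraries on both days, and the control libraries of day 14 spread over a wide range. The log2 fold change was -1.59 ± 0.42 (SE), adjusted p = 0.0169 at day 7, and -1.90 ± 0.43 (SE), adjusted p = 0.00947 at day 14.

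Ctsl, a cysteine protease that also matures other cathepsins, was at 496, 571 and 427 CPM in hydrogel wounds and 985, 961 and 982 CPM in control wounds at day 7. At day 14 its levels were 134, 106 and 78.9 CPM in hydrogel wounds, against 1265, 1053 and 483 CPM in control wounds. The groups did not overlap at either day, and the gap was wider at day 14. The day 7 difference did not pass (-0.97 ± 0.37 (SE), adjusted p = 0.0704) and the day 14 difference did (-3.14 ± 0.40 (SE), adjusted p = 0.000842). The change of its hydrogel effect between days passed the interaction test (adjusted p = 0.00468).

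Ctss and Ctsk are neighbours on chromosome 3, at chr3:95526786-95556403 and chr3:95499256-95509362 on the plus strand of GRCm38. Ctss cuts the invariant chain during antigen presentation and is known from antigen-presenting cells. It had 20.7, 13.4 and 9.67 CPM in hydrogel wounds and 490.4, 319 and 133 CPM in control wounds at day 14. At day 7 the values were 73.9, 106 and 46.0 CPM in hydrogel wounds and 287, 280.4 and 278 CPM in control wounds. Hydrogel libraries lay below control libraries on both days, and at day 1 the arms overlapped. Its log2 fold change was -4.43 ± 0.78 (SE), adjusted p = 0.00301 at day 14, the lowest hydrogel-over-control value of any member at any day, and -1.90 ± 0.70 (SE), adjusted p = 0.0629 at day 7, which did not pass.

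Ctsk, a collagenase of osteoclasts and fibroblasts, was at 60.2, 71.5 and 42.6 CPM in hydrogel wounds and 168, 166 and 167 CPM in control wounds at day 7. By day 14 the levels were 54.4, 42.1 and 31.7 CPM in hydrogel wounds, against 694, 365 and 176 CPM in control wounds. The arms lay apart on both days, with control replicate 1 of day 14 far above the other control libraries. The log2 fold changes were -1.52 ± 0.49 (SE), adjusted p = 0.0376 at day 7, and -3.27 ± 0.52 (SE), adjusted p = 0.00187 at day 14. The day 14 calls of Ctsk, Ctsl and Ctss held in all 28 alternatives run for that comparison, with adjusted p-values of at most 0.0421, 0.0375 and 0.0362.

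Lgmn, an asparagine-specific protease that processes cathepsins, had 259, 327 and 266 CPM in hydrogel wounds and 251, 62.1 and 80.2 CPM in control wounds at day 1. At day 7 it had 112, 97.4 and 116 CPM in hydrogel wounds and 310.5, 316 and 313 CPM in control wounds. At day 14 the libraries held 57.3, 48.3 and 43.5 CPM in hydrogel wounds, against 468, 271 and 123 CPM in control wounds. The hydrogel libraries thus lay above the controls at day 1 and below them at days 7 and 14. The day 1 difference did not pass (1.11 ± 0.46 (SE), adjusted p = 0.142), while those of day 7 (-1.53 ± 0.47 (SE), adjusted p = 0.0306) and day 14 (-2.53 ± 0.48 (SE), adjusted p = 0.00406) did. The change between days passed (adjusted p = 0.00618).

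Of the remaining proteases, Ctsh, an aminopeptidase, fell at day 7 (-1.67 ± 0.39 (SE), adjusted p = 0.00903) and at day 14 (-2.04 ± 0.40 (SE), adjusted p = 0.0047). Ctsa, a carboxypeptidase that protects the galactosidase Glb1 and the sialidase Neu1, fell at both days, with log2 fold changes of -0.88 ± 0.25 and -1.02 ± 0.25 (SE). The dipeptidase Dpp7 fell at both days, with log2 fold changes of -0.82 ± 0.19 and -0.56 ± 0.19 (SE) and an adjusted p of 0.0499 at day 14, at the edge of the threshold. Ctsz, a carboxypeptidase, fell at day 7 (-1.78 ± 0.39 (SE), adjusted p = 0.0067) and missed the threshold at day 14 (-1.17 ± 0.38 (SE), adjusted p = 0.0505).

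Ctsd, the aspartic protease named above, had 753, 732 and 828 CPM in hydrogel wounds and 901, 905 and 954 CPM in control wounds at day 7. At day 14 it had 654, 533 and 458 CPM in hydrogel wounds and 729, 789 and 506 CPM in control wounds. The day 7 libraries were apart by a narrow gap and the day 14 libraries overlapped. Neither difference passed (-0.26 ± 0.25 (SE), adjusted p = 0.483, and -0.30 ± 0.25 (SE), adjusted p = 0.439). Ctsc, Ctsf and Tpp1, a dipeptidyl peptidase, a cysteine protease and a tripeptidyl peptidase, also passed at no day. Ctsd took 10.3% to 12.6% of the summed member CPM in hydrogel wounds of day 7, against 7.03% to 7.33% in control wounds, and Ctsb took 11.8% to 12.1% in hydrogel wounds, against 18.7% to 19% in control wounds.

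Among the 9 glycosidases, 5 fell at day 7 and 5 at day 14, with class medians of -0.84 and -1.06. Hexa, the alpha subunit of hexosaminidase A, whose loss causes Tay-Sachs disease, had 66.7, 70.9 and 66.4 CPM in hydrogel wounds and 238, 241 and 229.6 CPM in control wounds at day 7. Its day 14 levels were 46.5, 35.6 and 29.4 CPM in hydrogel wounds and 315, 120.3 and 62.1 CPM in control wounds. All hydrogel libraries lay below all control libraries on both days. The log2 fold changes were -1.80 ± 0.40 (SE), adjusted p = 0.00689 at day 7, and -2.16 ± 0.40 (SE), adjusted p = 0.00359 at day 14. At day 1 the order was the opposite, with 123, 138 and 136 CPM in hydrogel wounds and 77.9, 91.8 and 72.9 CPM in control wounds, a difference that did not pass (0.71 ± 0.39 (SE), adjusted p = 0.26). The change between days passed (adjusted p = 0.00647).

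The acid alpha-mannosidase Man2b1, the heparan sulfate enzyme Naglu and the sialidase Neu1 fell at both days, with log2 fold changes of -1.44 ± 0.31, -1.64 ± 0.32 and -0.68 ± 0.18 (SE) at day 7 and -1.38 ± 0.31, -1.06 ± 0.32 and -0.57 ± 0.18 at day 14. Gusb, the beta-glucuronidase, fell at day 7 (-1.84 ± 0.47 (SE), adjusted p = 0.0142) and missed the threshold at day 14 (-1.41 ± 0.47 (SE), adjusted p = 0.0512). Manba had 2.06, 3.47 and 3.73 CPM in hydrogel wounds and 1.5, 1.14 and 1.08 CPM in control wounds at day 1. By day 14 the levels were 2.01, 2.37 and 2.17 CPM in hydrogel wounds and 5.34, 7.58 and 2.56 CPM in control wounds. It thus lay above the controls at day 1 and below them at day 14. Both differences passed edgeR's test, with 1.32 ± 0.36 (SE), adjusted p = 0.0389 at day 1, and -1.24 ± 0.34 (SE), adjusted p = 0.0244 at day 14. The day 1 levels rest on 24, 66 and 72 read pairs in hydrogel wounds and 22, 15 and 17 in control wounds. The day 1 call of Manba held in 11 of 28 alternatives, with adjusted p-values from 0.0119 to 0.746, and the day 14 call in 19 of 28, from 0.000749 to 0.638.

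Gaa, the acid alpha-glucosidase that digests glycogen, had 176, 159 and 178 CPM in hydrogel wounds and 87.9, 97.1 and 96.6 CPM in control wounds at day 7. The hydrogel libraries lay above the control libraries at day 7, yet the difference did not pass (0.86 ± 0.56 (SE), adjusted p = 0.279). At day 1 Gaa ranged from 213 to 1153 CPM in hydrogel wounds and from 70.8 to 529 CPM in control wounds, a wide and overlapping spread, and at day 14 the hydrogel libraries lay below the controls (-0.65 ± 0.56 (SE), adjusted p = 0.449). Glb1 and Gla, the beta- and alpha-galactosidases, passed at no day.

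Of the 8 lipid genes, 5 fell at day 7 (Galc, Ppt1, Npc2, Lipa and Asah1) and 2 at day 14 (Psap and Lipa), with class medians of -0.95 and -0.78. Lipa, the acid lipase that frees cholesterol from its esters, had 19.6, 20.8 and 15.6 CPM in hydrogel wounds and 76.7, 74.7 and 74.2 CPM in control wounds at day 7. At day 14 the libraries held 11.1, 9.79 and 8.36 CPM in hydrogel wounds and 80.9, 74.0 and 25.3 CPM in control wounds. On both days the arms lay apart (-2.01 ± 0.61 (SE), adjusted p = 0.0294 at day 7, and -2.62 ± 0.62 (SE), adjusted p = 0.0118 at day 14). At day 1 control replicate 1 held 203 CPM of Lipa, far above the other 2 control libraries at 39.4 and 22.7 CPM.

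Npc2, which binds cholesterol inside the lysosome and hands it to the membrane protein Npc1, had 137, 142 and 134 CPM in hydrogel wounds and 608, 618 and 629.7 CPM in control wounds at day 7. At day 14 it had 119.9, 112 and 104 CPM in hydrogel wounds and 712, 238 and 110.3 CPM in control wounds. The arms lay apart at day 7 and touched at day 14, where 1 control library fell within the hydrogel range. The log2 fold change was -2.17 ± 0.67 (SE), adjusted p = 0.0314 at day 7, and -1.66 ± 0.65 (SE), adjusted p = 0.0934 at day 14, which did not pass.

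Npc1 itself had 36.5, 34.7 and 36.0 CPM in hydrogel wounds and 20.8, 19.4 and 18.5 CPM in control wounds at day 7. The hydrogel libraries lay above the controls, and the difference did not pass (0.87 ± 0.55 (SE), adjusted p = 0.263). Psap, the precursor of the 4 saposins that present lipids to their hydrolases, had 1047, 1167 and 989.6 CPM in hydrogel wounds and 1929, 1909 and 1962 CPM in control wounds at day 7. Its day 14 levels were 703, 617 and 567 CPM in hydrogel wounds and 1955, 2081 and 736 CPM in control wounds. Neither day showed overlap between the arms, and only the day 14 difference passed (-1.34 ± 0.36 (SE), adjusted p = 0.0211). Smpd1, the acid sphingomyelinase, was above the controls in all 3 hydrogel libraries at days 7 and 14 without passing (0.27 ± 0.22 and 0.51 ± 0.22 SE).

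The acid phosphatase Acp2 fell at day 7 (-0.96 ± 0.29 (SE), adjusted p = 0.028), and at day 14 its difference did not pass (-0.69 ± 0.28 (SE), adjusted p = 0.108). Acp5, the tartrate-resistant phosphatase of osteoclasts and some macrophages, had 89.2, 85.4 and 93.4 CPM in hydrogel wounds and 171, 165 and 158 CPM in control wounds at day 7. The arms did not overlap, and the difference did not pass (-0.88 ± 0.49 (SE), adjusted p = 0.209).

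Of the 8 membrane proteins, 2 fell at day 7 and the same 2, Laptm5 and Cd63, at day 14. Laptm5, a lysosomal membrane protein of blood cells, had 38.6, 37.4 and 33.6 CPM in hydrogel wounds and 184, 187 and 182 CPM in control wounds at day 7. By day 14 the levels were 23.5, 17.2 and 14.4 CPM in hydrogel wounds and 228, 127 and 27.1 CPM in control wounds. Hydrogel libraries were below control libraries on both days (-2.33 ± 0.71 (SE), adjusted p = 0.0306 at day 7, and -2.79 ± 0.73 (SE), adjusted p = 0.0183 at day 14). Cd63, a tetraspanin of late endosomes and exosomes found in most cell types, had 278, 286 and 306 CPM in hydrogel wounds and 482, 507 and 528 CPM in control wounds at day 7. At day 14 the libraries held 234, 207 and 182 CPM in hydrogel wounds and 879, 417 and 446 CPM in control wounds. The arms lay apart on both days, with -0.80 ± 0.27 (SE), adjusted p = 0.0431 at day 7, and -1.48 ± 0.27 (SE), adjusted p = 0.00339 at day 14.

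Lamp1, the abundant lining protein of the lysosome, had 517, 496 and 518 CPM in hydrogel wounds and 598, 619 and 615 CPM in control wounds at day 7. At day 14 it had 318, 280.1 and 262 CPM in hydrogel wounds and 754, 474 and 286 CPM in control wounds. The day 14 libraries overlapped, and neither difference passed (-0.26 ± 0.29 (SE), adjusted p = 0.537, and -0.82 ± 0.29 (SE), adjusted p = 0.0655). Lamp2, Scarb2, the receptor that carries glucocerebrosidase, the calcium channel Mcoln1 and the Batten disease protein Cln3 passed at no day. Gpnmb, a glycoprotein of lipid-laden macrophages and pigment cells, had 148, 179 and 201 CPM in hydrogel wounds and 149.6, 472 and 128 CPM in control wounds at day 14. The arms overlapped, with 1 control library far above the rest (-0.51 ± 0.52 (SE), adjusted p = 0.533).

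None of the 5 proton pump subunits passed edgeR's test at any day, and at an unadjusted p below 0.05 there was 1, lower at day 1, and 0 at days 7 and 14. Atp6v0d1, the broadly used d subunit of the membrane sector, had 98.5, 97.0 and 98.3 CPM in hydrogel wounds and 136, 135 and 138 CPM in control wounds at day 7. The groups did not overlap, and the difference did not pass (-0.47 ± 0.25 (SE), adjusted p = 0.181). Atp6v0d2, its relative known from osteoclasts and macrophages, had 9.12, 14.9 and 2.67 CPM in hydrogel wounds and 23.1, 24.5 and 21.9 CPM in control wounds at day 7, also apart and also not passed (-1.38 ± 0.90 (SE), adjusted p = 0.282). At day 14 the arms again lay apart without passing (-1.60 ± 0.90 (SE), adjusted p = 0.234). Atp6v1a, Atp6v1b2 and Atp6ap1 had log2 fold changes between -0.38 and 0.20 at days 7 and 14.

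Tfeb, the factor that switches on lysosomal genes when nutrients are short, had 79.9, 133 and 133 CPM in hydrogel wounds and 21.7, 54.8 and 57.9 CPM in control wounds at day 1. At day 7 it had 60.9, 55.6 and 70.7 CPM in hydrogel wounds and 44.9, 43.9 and 43.1 CPM in control wounds. Its day 14 levels were 39.5, 34.5 and 33.0 CPM in hydrogel wounds, against 38.5, 36.6 and 42.4 CPM in control wounds. The hydrogel libraries lay above the controls at days 1 and 7 and overlapped them at day 14. It rose at day 1 (1.37 ± 0.29 (SE), adjusted p = 0.0141) and did not pass at day 7 (0.50 ± 0.29 (SE), adjusted p = 0.215) or day 14 (-0.13 ± 0.29 (SE), adjusted p = 0.781). The day 1 call held in 24 of 28 alternatives, with adjusted p-values from 0.000272 to 0.557. It was lost without hydrogel replicate 3 of day 1, with the 2-fold minimum, in a fit of only the day 1 groups, and with the day 7 libraries summed. The 28 include fits that left out 1 library of another day.

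Tfec, a relative of Tfeb known from macrophages, had 0.355, 0.249 and 0.207 CPM in hydrogel wounds and 5.92, 2.57 and 1.56 CPM in control wounds at day 14. At day 7 it had 1.51, 1.62 and 1.54 CPM in hydrogel wounds and 5.06, 5.83 and 5.10 CPM in control wounds. The arms lay apart on both days, at levels that are among the lowest of the members per kilobase. It fell at day 14 (-3.60 ± 0.83 (SE), adjusted p = 0.0107) and did not pass at day 7 (-1.77 ± 0.75 (SE), adjusted p = 0.1). Grn, a secreted factor needed for lysosome function, had 166, 171 and 159 CPM in hydrogel wounds and 551, 563 and 564 CPM in control wounds at day 7. By day 14 the levels were 113, 107 and 104 CPM in hydrogel wounds and 617, 315 and 175 CPM in control wounds. The arms lay apart, and both differences passed (-1.76 ± 0.44 (SE), adjusted p = 0.0118 at day 7, and -1.77 ± 0.44 (SE), adjusted p = 0.0144 at day 14).

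**Figure D3:**
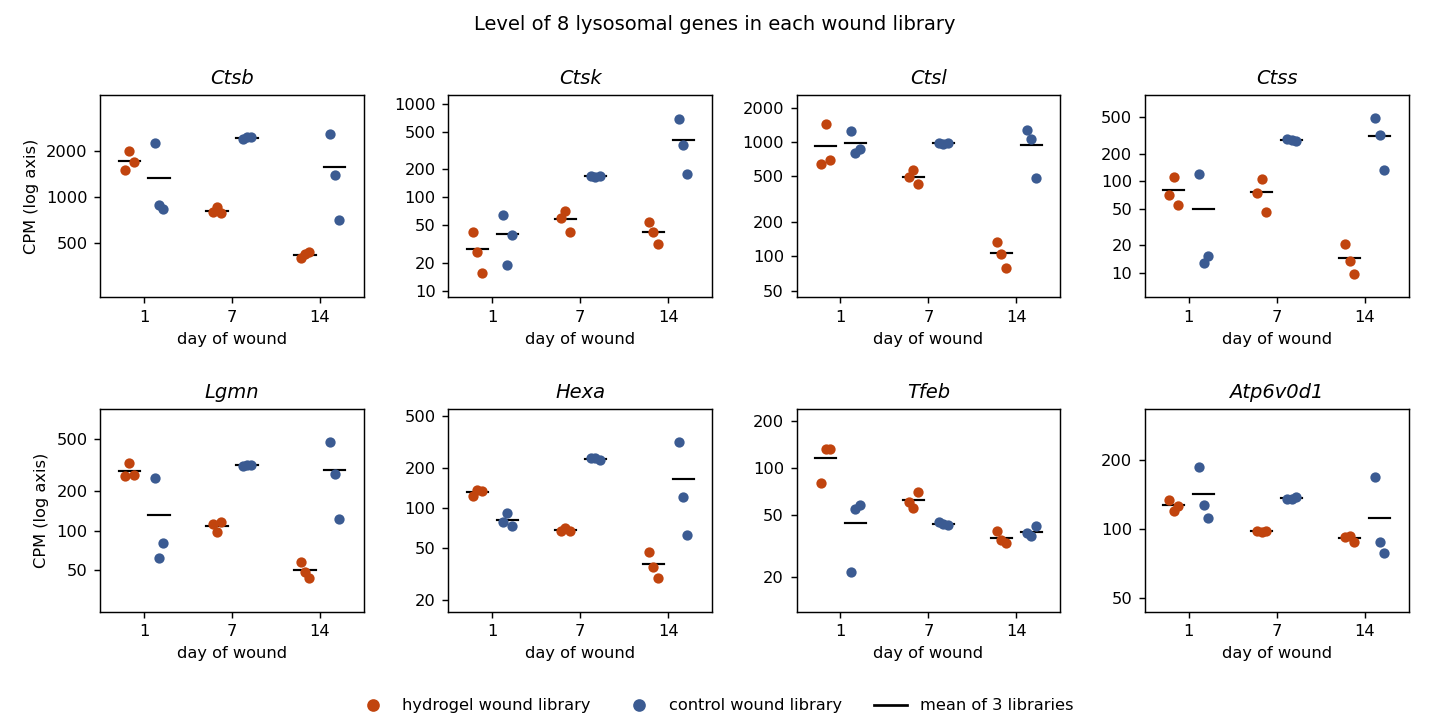
CPM (log axis) of 8 genes in each wound library at days 1, 7 and 14; points are libraries, hydrogel left and control right at each day, and black lines are means of 3. Ctsb, Ctsl, Ctss, Lgmn and Hexa show hydrogel points below all control points at days 7 and 14, Tfeb shows them above at days 1 and 7, and Atp6v0d1 overlaps at days 1 and 14.

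Of the 8 members with the TCACGTGA core, 2 fell at day 7 (Ctsa and Dpp7, whose windows are printed above) with a median log2 fold change of -0.36, and 16 of the 34 members with a promoter entry but no core fell, with a median of -0.95. At day 14 the counts were 2 of 8 with the core (median -0.38) and 15 of 34 without it (median -0.94). These are descriptions of a window of 300 bases, and no test was made of the difference.

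Markers of several cell types differed between the same wounds. Of 14 macrophage markers, 12 fell at day 7 (median -2.76 on the log2 scale) and 12 at day 14 (median -4.19), and 2, Fcgr1 and Aif1, rose at day 1. Their summed level at day 7 was 297 to 305 CPM in hydrogel wounds and 1873 to 1896 CPM in control wounds. At day 14 it was 72.5 to 91.6 CPM in hydrogel wounds and 291 to 2854 CPM in control wounds, and no macrophage marker was at 0 in any wound library of days 7 and 14. All 8 fibroblast markers fell at day 7 and 7 at day 14, with sums of 1455 to 1688 CPM in hydrogel wounds and 10340 to 10470 CPM in control wounds at day 7, and of 2022 to 2596 CPM in hydrogel wounds and 10580 to 47320 CPM in control wounds at day 14. Of 8 keratinocyte markers, 6 rose at day 7, of 7 adipocyte markers 6 fell, and of 6 endothelial markers 5 fell. Keratinocyte sums at day 7 were 6821 to 6857 CPM in hydrogel wounds and 514 to 531 CPM in control wounds. Adipocyte sums were 991 to 1184 CPM in hydrogel wounds and 22110 to 22860 CPM in control wounds. Endothelial sums were 254 to 258.5 CPM in hydrogel wounds and 953.5 to 964 CPM in control wounds. Of 10 neutrophil markers 6 could be tested, and 4 of these fell at day 14, with sums of 32.2 to 98.5 CPM in hydrogel wounds and 45.9 to 318 CPM in control wounds. Of 8 skeletal muscle markers 2 rose at day 7, where all 8 lay apart and higher, with sums of 87360 to 100800 CPM in hydrogel wounds and 28050 to 28490 CPM in control wounds. At day 14 none of the 8 passed, with sums of 12550 to 21900 CPM in hydrogel wounds and 29090 to 36690 CPM in control wounds. Of 6 mast cell markers 5 could be tested, and at day 7 all 5 lay apart and lower without passing, with sums of 25.1 to 39.4 CPM in hydrogel wounds and 66.2 to 70.5 CPM in control wounds. At day 14, 3 endothelial markers fell (sums of 64.2 to 89.1 CPM in hydrogel wounds and 183.5 to 277 CPM in control wounds), and no keratinocyte marker passed (4467 to 5312 CPM in hydrogel wounds and 557 to 5360 CPM in control wounds). On the same day 1 adipocyte marker rose (640.5 to 813 CPM in hydrogel wounds and 737 to 1991 CPM in control wounds), as did 1 mast cell marker (69.4 to 79.2 CPM in hydrogel wounds and 30.0 to 161.6 CPM in control wounds). Of 8 osteoclast markers 5 could be tested and none passed at days 7 and 14. At day 1, at an unadjusted p below 0.05 by edgeR's test, 5 of 6 neutrophil, 4 of 14 macrophage and 4 of 8 fibroblast markers were higher. So were 1 skeletal muscle and 1 osteoclast marker, while 6 of 7 adipocyte, 2 of 6 endothelial and 2 of 8 keratinocyte markers were lower. Summed neutrophil markers at day 1 were 180 to 921 CPM in hydrogel wounds and 128 to 204 CPM in control wounds. The part of these cell types in the changes of the lysosomal genes was not tested.

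**Figure D4:**
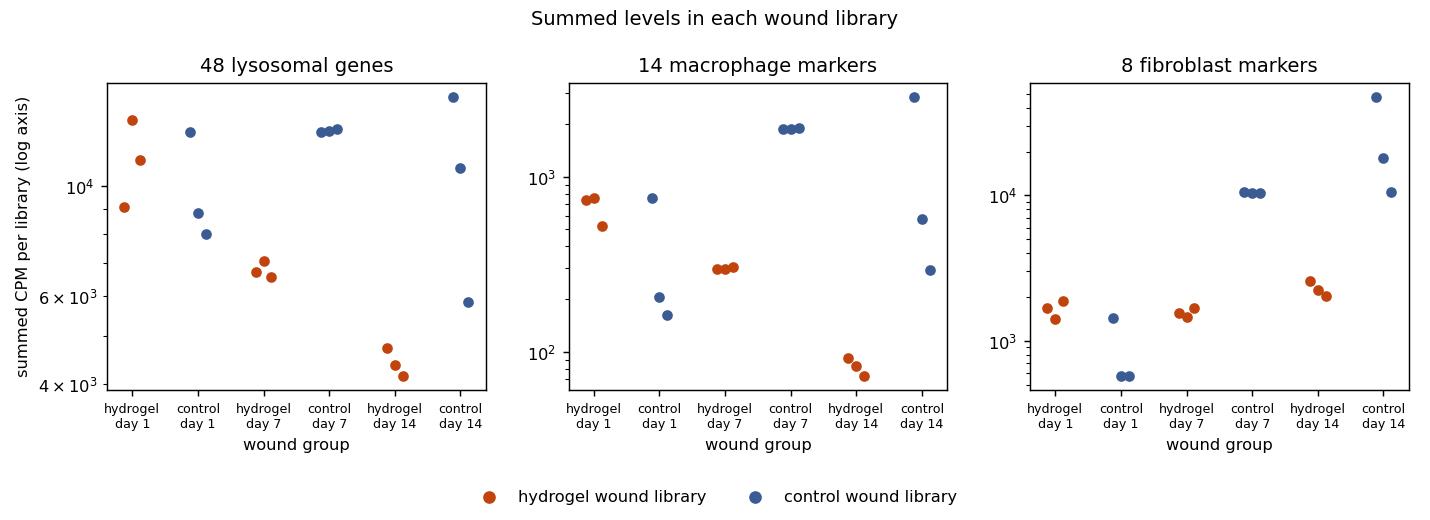
Summed CPM (log axis) of the 48 lysosomal genes, 14 macrophage markers and 8 fibroblast markers in each wound library, hydrogel left of control at each day. The sums of both marker lists lie lower in the 3 hydrogel libraries than in the 3 control libraries at days 7 and 14, as do those of the lysosomal genes.

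Each arm was also followed over time. Of all genes 31.6% passed in control wounds at day 7 against day 1, 15.0% higher and 16.6% lower. Of the members 15 (31.2%) were higher and 3 (6.25%) lower, together 37.5%. The 6 risers with the smallest adjusted p were Man2b1 (1.87 ± 0.31 SE), Ctsh (1.89 ± 0.40), Manba (1.71 ± 0.36), Ctsk (2.04 ± 0.50), Hexa (1.55 ± 0.39) and Dpp7 (0.72 ± 0.19), and the 3 lower were Gaa, Neu1 and the pump subunit Atp6v1b2. At day 14 against day 1, 32.4% of all genes passed in control wounds, 16.7% higher and 15.7% lower. Of the members 9 (18.8%) were higher and 5 (10.4%) lower, together 29.2%, which is close to the share of all genes. Ctsk rose most, to 694, 365 and 176 CPM at day 14, against 63.9, 18.7 and 39.0 CPM at day 1 (3.34 ± 0.52 (SE), adjusted p = 0.000426). The libraries of the 2 days did not overlap. These counts turn on day 1 controls: without control replicate 1 of day 1, 31 and 26 members passed at days 7 and 14, without replicate 2 it was 8 and 8, and without replicate 3 it was 9 and 9. Without control replicate 1 of day 7, 11 passed at day 7, and with the day 7 libraries summed 0 passed at day 7 (12 at an unadjusted p below 0.05) and 7 at day 14. Without control replicate 1 of day 1, Neu1 at day 7 and Naglu at day 14 were lost, and without control replicate 1 of day 14, Ctsa, Glb1, Gaa and Naglu at day 14. The rise of Ctsk at day 14 was 3.83 and 2.74 on the log2 scale without these libraries, with adjusted p-values of 0.00028 and 0.000679 by edgeR's test. In a fit of only the groups compared, 0 of the 14 calls at day 14 were kept, so that of Ctsk was lost. The same kind of fit kept 10 of the 18 calls at day 7.

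Cell type markers moved in the same control wounds. At day 7 against day 1, 10 of 14 macrophage and 8 of 8 fibroblast markers rose, and 6 of 8 keratinocyte and 5 of 8 skeletal muscle markers fell. At day 14 against day 1, 8 macrophage and 8 fibroblast markers rose, and 6 of 7 adipocyte, 4 of 6 endothelial and 2 of 8 skeletal muscle markers fell. Their part in the changes of the lysosomal genes over time was not tested.

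In hydrogel wounds 2 members (4.17%) were higher at day 7 than at day 1 and 6 (12.5%) were lower, together 16.7%. Of all genes 18.3% passed, 7.76% higher and 10.5% lower. At day 14 against day 1, 3 members (6.25%) were higher and 20 (41.7%) lower, together 47.9%. Of all genes 47.8% passed, 21.8% higher and 26.1% lower. The share of members that passed was thus close to that of all genes at both days. At day 14 a larger share of members than of all genes was lower. The members that rose were the osteoclast-associated Acp5 and Atp6v0d2 at both days and Gpnmb at day 14. Acp5 had 89.2, 85.4 and 93.4 CPM at day 7, against 13.2, 11.3 and 29.1 CPM at day 1. Atp6v0d2 had 6.67, 6.49 and 7.98 CPM at day 14, against 1.29, 0.210 and 0.776 CPM at day 1. Its day 1 levels rest on 15, 4 and 15 read pairs. In both genes the later libraries lay above those of day 1, with log2 fold changes of 2.32 ± 0.52 (SE), adjusted p = 0.00948, and 3.27 ± 1.04 (SE), adjusted p = 0.018. Control wounds of day 14 held more Atp6v0d2 than the hydrogel wounds, with 20.8, 30.5 and 12.7 CPM in the control libraries, a difference that did not pass at that day, as given above.

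The members that fell most between days 1 and 14 in hydrogel wounds were Tfec (-4.30 ± 0.85 (SE), adjusted p = 0.00108), Gaa (-3.42 ± 0.61 (SE), adjusted p = 0.000573) and Ctsl (-3.13 ± 0.40 (SE), adjusted p = 6.74e-05). Tfec was near the floor at day 14, with 9, 8 and 6 read pairs in the hydrogel libraries. Cd63 fell at day 7 (-1.54 ± 0.27 SE) and at day 14 (-2.03 ± 0.27), and Lamp1, which did not pass between the arms, fell within the hydrogel arm at day 14 (-1.68 ± 0.29 (SE), adjusted p = 0.000511). The day 7 count was 17 without control replicate 1 of day 1, 14 without control replicate 1 or 3 of day 14 or hydrogel replicate 1 of day 1, 2 and 3 without hydrogel replicates 2 and 3 of day 1, 3 or 4 without 1 hydrogel library of day 7, and 0 with the day 7 libraries summed (4 at an unadjusted p below 0.05). The rises at day 14 of Acp5 (1.19, adjusted p = 0.103) and Gpnmb (1.18, adjusted p = 0.098) were lost without hydrogel replicate 1 of day 1.

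In hydrogel wounds 3 of 14 macrophage, 5 of 6 neutrophil and 2 of 7 adipocyte markers tested fell at day 7 against day 1. At day 14 against day 1, 13 of 14 macrophage, 7 of 8 skeletal muscle, 6 of 6 neutrophil, 6 of 6 endothelial, 3 of 5 osteoclast and 2 of 7 adipocyte markers fell, while 2 of 8 fibroblast markers rose and 1 fell. Their part in the falls of the lysosomal genes was not tested.

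In RAW264.7 cells 23 members were higher with hydrogel and 13 lower, together 75% of the 48, where 72.5% of all 12972 genes tested passed, 34.7% higher and 37.8% lower. The share of members that passed is thus close to that of all genes. The members' median log2 fold change was 0.13 and that of all genes -0.04. Their summed level was 19810 to 21520 CPM in hydrogel cells and 18920 to 19190 CPM in control cells. The library ranges lay apart for 37 members, 23 above and 14 below, where 36.0% of all genes lay above and 39.9% below. When a change beyond 2-fold was required, 1 member passed, Lamp2. Adgre1, a macrophage marker, fell in the same cells (-1.60 ± 0.16 (SE), adjusted p = 6.31e-06) and Csf1r, the receptor for the macrophage growth factor, rose (1.08 ± 0.06 (SE), adjusted p = 1.33e-07), and the part of such changes in the lysosomal genes was not tested.

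Proteases split in the cells, with 8 higher and 4 lower of 13. Ctsb had 4964, 5697 and 6071 CPM in hydrogel cells and 4557, 4594 and 4659 CPM in control cells. Ctsd had 1651, 1569 and 1421 CPM in hydrogel cells and 1127, 1098 and 1117 CPM in control cells. Both lay above the controls in every library (0.28 ± 0.08 (SE), adjusted p = 0.00873, and 0.47 ± 0.07 (SE), adjusted p = 0.000106). Ctsa, Ctsf, Ctsh, Ctsz, Lgmn and Dpp7 also rose, by log2 fold changes of 0.36 to 0.78. Ctsl had 487, 639 and 736 CPM in hydrogel cells and 824, 817 and 815 CPM in control cells. Ctss had 269, 369 and 409.5 CPM in hydrogel cells and 558, 574 and 583 CPM in control cells. Both lay below the controls in every library (-0.40 ± 0.12 (SE), adjusted p = 0.0126, and -0.71 ± 0.12 (SE), adjusted p = 0.000448), and Ctsc and Ctsk fell as well. Ctsk, Ctsh, Tfec, Acp5, Atp6v0d2 and Tfeb were near the floor in this line, with 4 to 71 read pairs per library.

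Of the 9 glycosidases 6 rose and 0 fell in the cells. Hexa had 514, 478 and 432 CPM in hydrogel cells and 299, 301 and 301 CPM in control cells, with every hydrogel library above every control library (0.66 ± 0.07 (SE), adjusted p = 1.1e-05); at an unadjusted p below 0.05 the count of glycosidases lower was also 0. Of the 8 lipid genes, Smpd1 rose and 4 fell: the cholesterol carriers Npc1 and Npc2, the lipase Lipa and the ceramidase Asah1. Lipa had 116, 129 and 124 CPM in hydrogel cells and 198, 205 and 199 CPM in control cells. Asah1 had 57.9, 66.1 and 72.7 CPM in hydrogel cells and 113, 117 and 114 CPM in control cells. Both lay well below the controls (-0.71 ± 0.06 (SE), adjusted p = 2.2e-06, and -0.80 ± 0.08 (SE), adjusted p = 7.29e-06). Psap and Grn did not pass (0.12 ± 0.05 (SE), adjusted p = 0.0618, and 0.06 ± 0.06 (SE), adjusted p = 0.417).

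The 2 lining proteins of the lysosome moved in opposite directions. Lamp1 had 749.5, 853 and 890.1 CPM in hydrogel cells and 614, 599 and 610.4 CPM in control cells. Lamp2, which also serves chaperone-mediated autophagy, had 171, 175 and 178 CPM in hydrogel cells and 449.8, 466 and 438 CPM in control cells. Lamp1 was above and Lamp2 below the controls in every library (0.45 ± 0.07 (SE), adjusted p = 0.000214, and -1.37 ± 0.06 (SE), adjusted p = 3.78e-08). Laptm5 showed the largest rise among the members, at 408, 370.3 and 337 CPM in hydrogel cells against 174, 168 and 178 CPM in control cells (1.10 ± 0.07 (SE), adjusted p = 4.98e-07). Cd63, Cln3 and Mcoln1 rose and Gpnmb and Scarb2 fell.

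The pump subunits Atp6v0d1, Atp6v1b2 and Atp6ap1 rose and Atp6v1a, the catalytic subunit, fell. Atp6v1a had 326, 393 and 439 CPM in hydrogel cells and 767, 775 and 753 CPM in control cells. Every hydrogel library lay below the controls (-0.99 ± 0.10 (SE), adjusted p = 5.76e-06). Tfeb did not pass (0.03 ± 0.14 (SE), adjusted p = 0.873) and Tfec fell (-1.09 ± 0.34 (SE), adjusted p = 0.0155), with 0.336, 0.308 and 0.168 CPM in hydrogel cells and 0.543, 0.483 and 0.671 CPM in control cells. Of the 8 members with the TCACGTGA core, 6 rose and 1 fell in the cells, and of the 34 without it 14 rose and 10 fell. The median log2 fold changes were 0.38 and 0.05. Of all genes in the cells 72.5% passed, 34.7% higher and 37.8% lower, and no test was made of the difference.

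**Figure D5:**
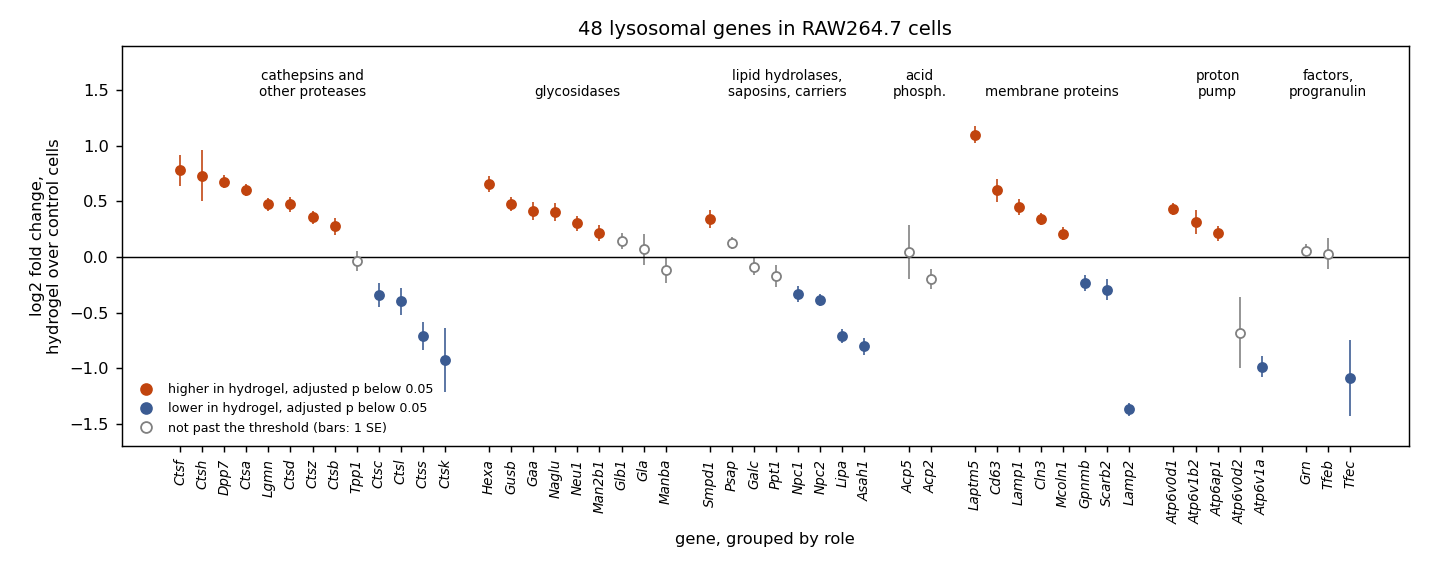
Log2 fold change of the 48 genes in RAW264.7 cells, hydrogel over control (y axis), by role (x axis); filled points passed an adjusted p of 0.05 and bars are 1 SE. Laptm5 stands highest at 1.10 and Lamp2 lowest at -1.37, and all other points lie between.

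Of the 26 members lower in hydrogel wounds at day 7 or day 14, 13 were higher (50%), 7 lower (26.9%) and 6 not past the threshold (23.1%) in the cells. Of all 48 members 47.9% were higher and 27.1% lower, and of all genes 34.7% and 37.8%. The 13 were Ctsa, Ctsb, Ctsh, Ctsz, Laptm5, Hexa, Gusb, Man2b1, Naglu, Neu1, Cd63, Lgmn and Dpp7, and the 7 were Ctsk, Ctsl, Ctss, Npc2, Lipa, Asah1 and Tfec. Laptm5 had log2 fold changes of -2.33 ± 0.71 and -2.79 ± 0.73 (SE) in wounds of days 7 and 14 and of 1.10 ± 0.07 in cells. Wounds and cells were fitted apart, and the difference between them was not tested.

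Further lysosomal genes outside the 48 were listed by role. Of 24 other hydrolases and activators 13 fell and 2 rose at day 7 (median -1.04), and 9 fell and 0 rose at day 14 (median -0.83). At day 7 the deoxyribonuclease Dnase2a rose (0.87 ± 0.15 (SE), adjusted p = 0.00252) and the fucosidase Fuca1 fell (-1.49 ± 0.32 (SE), adjusted p = 0.00593). Of 21 other membrane and transport genes 20 could be tested, and 2 fell at day 7 and 3 at day 14, among them Cd68, a macrophage sialomucin (-3.90 ± 0.46 (SE), adjusted p = 0.00069 at day 14), and the metal transporter Slc11a1 (-3.68 ± 0.66 (SE), adjusted p = 0.00315). Of 14 other V-ATPase subunits 2 rose and 1 fell at day 7, the faller being Tcirg1 (-1.28 ± 0.29 (SE), adjusted p = 0.00734), a subunit of osteoclasts and immune cells. One of the risers was Atp6v1b1, known from epithelia, at 6.89, 6.27 and 6.21 CPM in hydrogel wounds and at 0 in all 3 control libraries. Of 9 sorting genes the mannose 6-phosphate receptor Igf2r rose at day 1 (1.31 ± 0.32 (SE), adjusted p = 0.0268) and the sorting receptor Sort1 fell at day 7 (-1.36 ± 0.43 (SE), adjusted p = 0.0362). Of 10 other MiT factors and autophagy adaptors 0 passed edgeR's test between the arms at any day, and at an unadjusted p below 0.05 the counts were 1 at day 1, 1 at day 7 and 5 at day 14, all lower. Of the 4 cystatins, which inhibit cathepsins, Cst6 rose at day 7 (3.72 ± 0.73 (SE), adjusted p = 0.00411) and Cst3 fell at day 14 (-1.11 ± 0.26 (SE), adjusted p = 0.011).

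In the cells, 12 of the 24 other hydrolases rose and 4 fell, and 6 of 13 tested V-ATPase subunits rose and 4 fell. These counts stand beside 72.5% of all genes that passed, 34.7% higher and 37.8% lower. Mitf, a relative of Tfeb, had 10.9, 9.52 and 9.63 CPM in hydrogel cells and 31.5, 33.5 and 30.3 CPM in control cells. It lay below the controls in every library (-1.67 ± 0.08 (SE), adjusted p = 9.85e-08), and Tfe3 rose (0.38 ± 0.07 (SE), adjusted p = 0.000624). Of the 3 cystatins that could be tested all rose, Cst3 by 0.85 on the log2 scale.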

How the data were processed

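Counts per gene were used as the authors deposited them, raw read-pair counts from featureCounts over exons summed by gene name, in GRCm38 coordinates per the file headers. Per the submitters' processing notes the tools were Trim Galore 0.6.10, FastQC 0.11.9, HISAT2 2.2.1, SAMtools 1.9 and featureCounts 2.0.6, with the build mm10. Counting was not strand-specific per the file headers, so overlapping and antisense genes are not told apart.

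The 18 wound libraries were fitted together (6 group means) and the 6 cell libraries apart, with edgeR 4.0.16 in R 4.3.3: TMM scaling, filterByExpr (minimum count 10, minimum total 15), robust quasi-likelihood F-tests and Benjamini-Hochberg adjustment over all genes tested, with a threshold of 0.05. The standard error (SE) of a log2 fold change is its size divided by the square root of F. Alternatives used DESeq2 1.42.0, limma 3.58.1 (voom with quality weights), other scaling and filters, a 2-fold minimum, left-out and summed libraries. The procedure was tested on simulated data.

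The members, lists and tests were chosen with earlier results of these data known. Values by library were planned for a fixed panel of 20 genes. They are not printed for every day, and are also printed for some genes outside the panel. Others named are up to 12 members per direction for each hydrogel comparison and 6 for each day comparison, by adjusted p. Also named are every member past the between-day test, up to 2 per direction of each further list, markers, range ends and exceptions to a count. Any other gene named was chosen after its values were seen.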

Additional observations from a re-analysis of the deposited data

Results flagged for a closer look

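The effect of the hydrogel differed between days 1, 7 and 14 for 16 members, by edgeR's interaction test with adjusted p-values over all genes. The proteases among them were Ctsa (adjusted p = 0.0236), Ctsb (0.0284), Ctsh (0.0153), Ctsk (0.035), Ctsl (0.00468), Ctss (0.011), Lgmn (0.00618) and Dpp7 (0.0348), each adjusted p by the same test. The glycosidases were Hexa (adjusted p = 0.00647), Man2b1 (0.0192), Manba (0.00981) and Naglu (0.0145). The remaining members were Cd63 (adjusted p = 0.00942), Acp2 (0.0271), Tfeb (0.0476) and Tfec (0.0201). Over all genes 15.8% passed the same test.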

How the results depend on the processing

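Counts are members past an adjusted p of 0.05. For hydrogel against control wounds at days 1, 7 and 14, no count filter gave 1 at day 1 and 13 at day 7, limma-voom with quality weights gave 14, 44 and 33, the 2-fold minimum gave 0, 0 and 6, a fit of only the compared groups gave 0, 41 and 5, and summed day 7 libraries gave 0, 0 and 7. DESeq2 gave 6 at day 1, and leaving out control replicate 1 of days 1 and 14 together gave 14. For days 7 and 14 against day 1, limma-voom gave 30 and 40 in hydrogel wounds and 36 and 27 in control wounds, the 2-fold minimum gave 0 and 10, and 1 and 3, and leaving out both control libraries gave 22 and 35, and 32 and 26. The fit of only the compared groups gave 14 at day 7 in hydrogel wounds, and 10 and 0 in control wounds. Summed day 7 libraries gave 0 at day 7 in hydrogel wounds, and 0 and 7 in control wounds. At day 7 in hydrogel wounds no filter gave 3 and DESeq2 gave 13. For the between-day test limma-voom gave 34, leaving out both control libraries 29 and summed day 7 libraries 0. In RAW264.7 cells the 2-fold minimum gave 1. Leaving out 1 library at a time gave 0 to 9, 7 to 27 and 9 to 28 for the hydrogel effect at days 1, 7 and 14, 2 to 17 and 16 to 31 over time in hydrogel wounds, 8 to 31 and 8 to 26 in control wounds, 10 to 28 for the between-day test and 32 to 40 in cells. The members' median in control wounds, day 14 against day 1, was 0.18 with all libraries and -0.07 to 0.69 with 1 library left out, the negative value without control replicate 1 of day 14. The cause was not tested in any of these. Same-numbered libraries did not deviate together in every pair, so the numbers were not taken as pairs. With the replicate number as a block the counts were 2, 23 and 20 for the hydrogel effect, 11 and 25 over time in hydrogel wounds, 21 and 16 in control wounds, 18 for the between-day test and 37 in cells. The 2-fold minimum was not run for the between-day test.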
